A study of Rattus norvegicus with 10 samples.

Results

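Genes of myoepithelial cells, most of them of the contractile apparatus, were compared between the mammary glands of ACI rats and of BN rats after treatment with E2. The set holds 8 genes. *Acta2*, *Myh11*, *Mylk*, *Cnn1*, *Tagln* and *Actg2* belong to the contractile apparatus, while *Oxtr* encodes a hormone receptor and *Tp63* a transcription factor. Members of the set were all probe sets of the array annotated to 1 of these symbols alone, under the current or a former symbol. This gave 11 probe sets of 31042 tested and 8 genes of 14217. The rule used no measured value. The ACI group was 5 female rats of the inbred ACI strain and the BN group was 5 female rats of the inbred Brown Norway strain. In both, treatment with 17β-estradiol (E2) from a subcutaneous implant began at 9 weeks of age and lasted 12 weeks, and total RNA of the mammary gland of each rat was hybridized to an Affymetrix whole-genome rat array of its own. All 10 rats carried the implant, so a strain difference without E2 was not measured. The question was how far the glands of the strains differ after the same exposure to the hormone.

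Myoepithelial cells form the basal layer of the mammary epithelium and surround the luminal cells of ducts and alveoli. They carry the keratins and the transcription factor p63 of basal epithelium together with actins, myosin and regulatory proteins of smooth muscle. Oxytocin released during suckling binds its receptor on these cells, calcium rises, myosin light chain kinase phosphorylates the light chain of myosin, and the cells contract and eject milk. Smooth muscle of blood vessels and pericytes, the contractile cells around small vessels, express the same actins, myosin, *Cnn1*, *Tagln* and *Mylk*, and a whole gland holds both sources. *Tp63* is a gene of basal epithelium and not of vascular smooth muscle. Many smooth muscle genes are controlled by serum response factor, which binds a short DNA element called the CArG box.

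Promoter sequence was available from RefSeq (GRCr8) for 6 of the 8 genes, all but *Myh11* and *Tagln*. They were searched for the CArG box because it is the best known shared element of smooth muscle genes. The window ran from 250 bases before to 50 bases after the start of each gene, and position -1 is the base just before the start. An exact CArG box on either strand was present in none of the 6 windows and in 1.64% of all 33469 promoters (548). When 1 base of the A/T core was allowed to differ, a match was present in 8.1% of all promoters (2712) and, among the 6, in *Acta2* alone. Its matches were CCCTATATGG at -134 to -125 and CCTTGTTTGG at -84 to -75. Each of these 2 sites also reads as a match on the other strand. A match of letters is a description and not a measured binding site. The 250 bases upstream of *Acta2* (chr1:241172504-241172753, minus strand) are shown with both matches in capitals, because the gene had the widest range among BN rats, beside those of *Cnn1* (chr8:28908187-28908436, plus strand) and *Actg2* (chr4:117594040-117594289, minus strand), the called contractile genes with a sequence.
Acta2: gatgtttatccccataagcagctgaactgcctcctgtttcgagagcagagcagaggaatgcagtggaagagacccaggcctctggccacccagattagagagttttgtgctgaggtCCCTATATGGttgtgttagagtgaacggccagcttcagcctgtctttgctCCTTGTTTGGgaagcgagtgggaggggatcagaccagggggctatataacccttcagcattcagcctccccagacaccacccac
Cnn1: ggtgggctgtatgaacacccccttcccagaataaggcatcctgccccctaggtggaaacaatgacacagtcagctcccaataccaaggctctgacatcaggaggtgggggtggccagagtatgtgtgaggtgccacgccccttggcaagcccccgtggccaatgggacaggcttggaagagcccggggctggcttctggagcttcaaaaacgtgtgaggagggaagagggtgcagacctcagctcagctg
Actg2: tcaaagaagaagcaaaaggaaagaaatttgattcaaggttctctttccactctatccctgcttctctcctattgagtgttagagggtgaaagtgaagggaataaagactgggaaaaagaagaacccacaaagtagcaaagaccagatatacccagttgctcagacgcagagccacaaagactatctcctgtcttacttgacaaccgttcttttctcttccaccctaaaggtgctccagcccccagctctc

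Values are log2 expression per probe set as deposited, where a difference of 1 is a doubling, and 2.23 was the lowest value of the data. Where a gene had more than 1 probe set, it was represented by the one whose mean over the 10 arrays was highest. Differences are ACI minus BN, and a gene was called at an adjusted p-value under 0.05 from limma's moderated test, with Benjamini-Hochberg adjustment over all 31042 probe sets. Levels of different genes are not compared, since probes differ in brightness. The arrays had medians of 3.35 to 3.53 and 14067 to 14596 probe sets above 4. Arrays of the same strain correlated at 0.981 to 0.995 for ACI and 0.957 to 0.992 for BN, and arrays of different strains at 0.935 to 0.960. BN rats 4 and 5 stood apart from the other BN rats on the second principal component, which held 18.9% of the variance, and BN rat 3 had the lowest mean of lymphocyte markers among BN rats (5.17, the other BN rats being at 8.42 or above). Their weight in the results is given where it matters. Of the epithelial keratins, *Krt8* was at 11.60 ± 0.43 in ACI and 11.38 ± 0.53 in BN glands (SD, n = 5) and *Krt5*, a basal keratin, at 9.73 ± 0.28 and 9.09 ± 0.39, whereas 2 of 13 luminal markers, *Esr1* and *Foxa1*, were at 2.23 on every array and 5 of 26 basal genes were under 4 on every array.

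Of the 8 genes, 4 were more highly expressed in ACI glands at the threshold, *Cnn1*, *Tagln*, *Actg2* and *Tp63*, and 0 in BN glands. Over all genes, 8.29% were called higher in ACI and 9.12% higher in BN (1179 and 1297 of 14217). Among the 9363 genes with a mean of at least 4, these shares were 11.9% and 12.8%. By probe set, 4 of 11 were called, beside 12.7% of all probe sets in either direction (3930 of 31042). The 3 genes *Cnn1*, *Tagln* and *Tp63* had no overlap between strains, beside 16.6% of all genes (2363). The mean was higher in ACI for 8 of 8 genes, and the median log2 difference of the 8 was 0.76, beside 0.02 over the genes with a mean of at least 4 and a median size of 0.41 there. These genes describe 1 set that was proposed with results of the same arrays known, so the counts carry no test of their own. Without BN rats 4 and 5, 3 of the 8 genes were called higher in ACI. That fit called 6350 of the 31042 probe sets, 2582 of them higher in ACI, beside 3930 and 2108 with all rats. Without BN rat 3, 5 of the 8 genes were called higher in ACI, where the fits that leave out 1 rat called 2598 to 4618 probe sets. In whole glands, fewer cells of a type and less RNA per cell cannot be told apart.

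**Figure D1:**
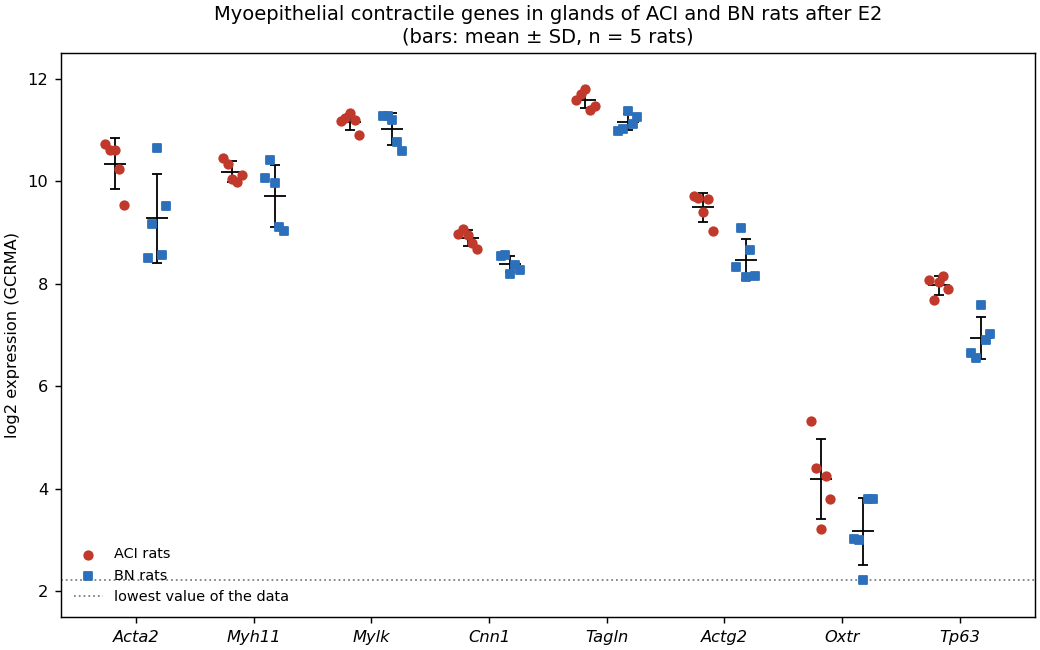
Log2 expression (GCRMA, vertical axis) of the representative probe set of each of the 8 genes (horizontal axis) in 5 ACI rats (circles) and 5 BN rats (squares). Bars are mean ± SD and the dotted line is the lowest value of the data, 2.23. The strains are separate for *Cnn1*, *Tagln* and *Tp63*, and for *Acta2* 1 BN rat lies at 10.65 among the ACI rats.

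The actins form the thin filaments that myosin pulls on. For *Actg2*, which encodes the γ-actin of smooth muscle, ACI rats 1 to 5 were at 9.72, 9.67, 9.40, 9.65 and 9.03 and BN rats 1 to 5 at 8.33, 9.09, 8.13, 8.67 and 8.15. The strains overlapped only through ACI rat 5 and BN rat 2. The log2 difference was 1.02 (SE 0.22, 95% interval 0.52 to 1.52), a 2.03-fold higher level in ACI glands, with an adjusted p of 0.0177 by limma and an exact two-sided permutation p of 0.0159 over the 252 arrangements of the rats. It was called in 9 of the 10 fits that leave out 1 rat, the exception being the fit without ACI rat 4 (0.98, adjusted p = 0.0508). For *Acta2*, the α-actin of smooth muscle and the usual histological marker of myoepithelium, the ACI rats were at 10.72, 10.62, 10.62, 10.24 and 9.53 and the BN rats at 8.5, 9.16, 10.65, 8.57 and 9.51. BN rat 3 was above every ACI rat but rat 1 and lay 1.14 to 2.15 above the other BN rats, and ACI rat 5 was level with BN rat 5. The log2 difference of 1.07 (SE 0.44, 95% interval 0.07 to 2.07) was about as large as that of *Actg2*, but was not called (adjusted p = 0.171, exact permutation p = 0.0714). Without BN rat 3 the difference of *Acta2* was 1.41 and passed (adjusted p = 0.0286), and over the 10 fits that leave out 1 rat each it ranged from 0.87 to 1.41.

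Actins of different muscles are close in sequence. A further 5 probe sets are annotated to *Acta2* together with the cardiac actin *Actc1* and were left out by the rule. None of them was called and none exceeded 5.82 on any array. Skeletal muscle genes also varied between glands, with mean levels over 19 markers of 6.08 to 10.29 in ACI and 3.32 to 9.31 in BN rats, and a median log2 difference of 3.16. None of the 19 was called in either direction with all rats, but 7 were called higher in ACI without BN rats 4 and 5, 2 without BN rat 5, 8 with array weights and 3 with the filter at 4. Their skeletal actin *Acta1* was at 12.73 ± 1.51 in ACI and 9.67 ± 2.79 in BN glands (adjusted p = 0.217), the myosin heavy chain *Myh2* at 6.67 ± 2.22 and 3.66 ± 2.11 (adjusted p = 0.208) and *Myh1* at 11.04 ± 0.67 and 11.30 ± 0.32 (adjusted p = 0.697). ACI rat 1, with the lowest skeletal muscle mean among ACI rats (6.08), had the highest *Acta2* and *Actg2* of its strain. BN rat 3, with the lowest mean of all (3.32), had the highest *Acta2* and the lowest *Actg2* among BN rats. But BN rat 1, with nearly the same mean (3.36), had the lowest *Acta2* of all rats (8.5). BN rat 5, with the highest BN mean (9.31), had *Acta2* at 9.51, above BN rats 1, 2 and 4. Probe sequences were not used here, so cross-hybridization between actins was not tested.

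Calponin 1 and transgelin bind actin filaments. For *Cnn1*, calponin 1, which restrains the myosin motor, the ACI rats were at 8.98, 9.08, 8.95, 8.80 and 8.68 and the BN rats at 8.54, 8.56, 8.20, 8.37 and 8.28. Every ACI rat was above every BN rat, by at least 0.12. The log2 difference was 0.51 (SE 0.10, 95% interval 0.29 to 0.73), or 1.42-fold, with an adjusted p of 0.0110 and an exact permutation p of 0.00794, the smallest that 5 rats against 5 can give. For *Tagln*, transgelin, an actin cross-linking protein, the ACI rats were at 11.58, 11.71, 11.81, 11.40 and 11.47 and the BN rats at 10.99, 11.03, 11.38, 11.12 and 11.25. The strains were again separate, but ACI rat 4 and BN rat 3 were only 0.02 apart. The log2 difference of *Tagln* was 0.44 (SE 0.10, 95% interval 0.21 to 0.67), or 1.36-fold, with an adjusted p of 0.0249 and the same smallest permutation p in the exact test. The call of *Tagln* was the least firm of the 4, since it was kept in 4 of the 10 fits that leave out 1 rat, with differences of 0.39 to 0.50 and adjusted p of 0.0154 to 0.0647, while *Cnn1* was called in 10 of 10. Leaving out ACI rat 1, 2 or 3, and likewise BN rat 1, 2 or 4, ended the call of *Tagln*, as did centring each array on its median over expressed probe sets (difference 0.41, adjusted p = 0.0982).

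**Figure D2:**
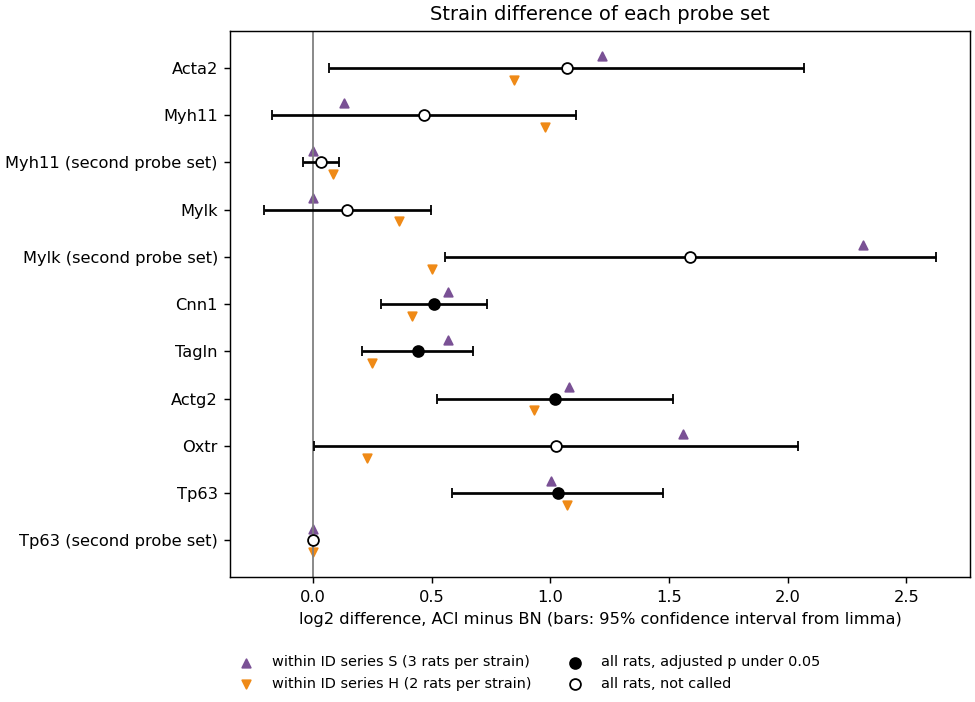
Log2 difference of ACI minus BN (horizontal axis) for each of the 11 probe sets (vertical axis) over all rats, with the 95% confidence interval from limma, and within each series of animal IDs (triangles). Filled circles mark the 4 called probe sets. The differences within the series lie on the same side of 0 for the 4 called genes. For *Cnn1*, *Tagln* and *Tp63* this had to be so, since their strains do not overlap. It had to be so for *Actg2* too, whose only overlapping rats, ACI rat 5 and BN rat 2, are of different series.

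Myosin and its kinase supply the force. For *Myh11*, the heavy chain of smooth muscle myosin, the ACI rats were at 10.46, 10.33, 10.04, 9.98 and 10.12 and the BN rats at 10.07, 10.41, 9.96, 9.11 and 9.04. BN rats 1 and 2 lay among the ACI rats, BN rat 3 just below them and BN rats 4 and 5 lower. The log2 difference of *Myh11* was 0.47 (SE 0.28) and was not called (adjusted p = 0.382, exact permutation p = 0.183). It was 0.0393 without BN rats 4 and 5, 0.32 without BN rat 4 alone and 0.30 without BN rat 5 alone. Its second probe set was at 2.23 on 9 of the arrays and at 2.40 in ACI rat 4, so that it gave no measurement. For *Mylk*, myosin light chain kinase, the ACI rats were at 11.17, 11.23, 11.33, 11.19 and 10.90 and the BN rats at 11.27, 11.27, 11.19, 10.77 and 10.60. BN rats 1 to 3 were within the ACI range and BN rats 4 and 5, as for *Myh11*, below it. The log2 difference of *Mylk* was 0.14 (SE 0.15, 95% interval -0.21 to 0.50, adjusted p = 0.616, exact permutation p = 0.373), and without BN rats 4 and 5 it was -0.0793.

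The second probe set of *Mylk* behaved otherwise. It was at 4.02, 5.28, 4.43, 4.79 and 3.87 in ACI rats and at 2.23, 2.32, 2.23, 3.74 and 3.92 in BN rats, all BN values being under 4 and near background. BN rats 4 and 5 were here the highest of their strain. The log2 difference was 1.59 (SE 0.45), with an adjusted p of 0.0553 and an exact permutation p of 0.0159, and it was 2.32 within rats 1 to 3 of each strain and 0.5 within rats 4 and 5. With a floor at 4 it shrank to 0.504 (adjusted p = 0.284), and it was called without BN rat 4 (1.80, adjusted p = 0.0455), without BN rat 5 (1.85, adjusted p = 0.0266), without both (2.22, adjusted p = 0.00512), within rats 1 to 3 (adjusted p = 0.0229), with the ID series as a block (adjusted p = 0.0459), with centring (adjusted p = 0.0422) and with array weights (adjusted p = 0.00205). When the probe sets of each gene were averaged, *Mylk* was called (log2 difference 0.87, adjusted p = 0.0131). The 2 probe sets of *Mylk* thus gave different answers, and which transcripts each detects was not tested.

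*Oxtr* encodes the receptor through which oxytocin makes myoepithelial cells contract. The ACI rats were at 5.33, 4.4, 3.21, 4.25 and 3.80 and the BN rats at 3.03, 3.01, 2.23, 3.80 and 3.80. Only 3 ACI rats exceeded 4 and every BN rat was below it, so most values were near background and their order within a strain says little. The log2 difference was 1.02 (SE 0.45, 95% interval 0.00 to 2.04) and was not called (adjusted p = 0.199, exact permutation p = 0.0556). Values this close to background leave the size of a difference uncertain.

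*Tp63* encodes p63, the transcription factor that maintains basal epithelial cells, and is the 1 nuclear regulator among the 8. The ACI rats were at 8.08, 7.69, 8.04, 8.16 and 7.90 and the BN rats at 6.65, 6.56, 7.59, 6.90 and 7.02. All ACI rats were above all BN rats, and BN rat 3 came within 0.10 of the lowest ACI rat. The log2 difference of *Tp63* was 1.03 (SE 0.19, 95% interval 0.59 to 1.47), or 2.04-fold, with an adjusted p of 0.0103 and an exact permutation p of 0.00794, and it was called in all 10 fits that leave out 1 rat. Its second probe set stood at 2.23, the lowest value, on every array and measured nothing.

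The order of the rats differed between the genes. ACI rat 5 was below the mean of its strain for 8 of the 8 genes, by 0.30 on average, and ACI rat 1 was above it for 7. Among BN rats, rat 3 was the highest of its strain for *Acta2*, *Tagln* and *Tp63* and the lowest for *Cnn1* and *Actg2*. BN rat 5 was the lowest for *Myh11* and *Mylk*, and BN rat 2 the highest for *Myh11*, *Cnn1* and *Actg2*. The range within BN was widest for *Acta2* (2.15) and narrowest for *Cnn1* (0.36).

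**Figure D3:**
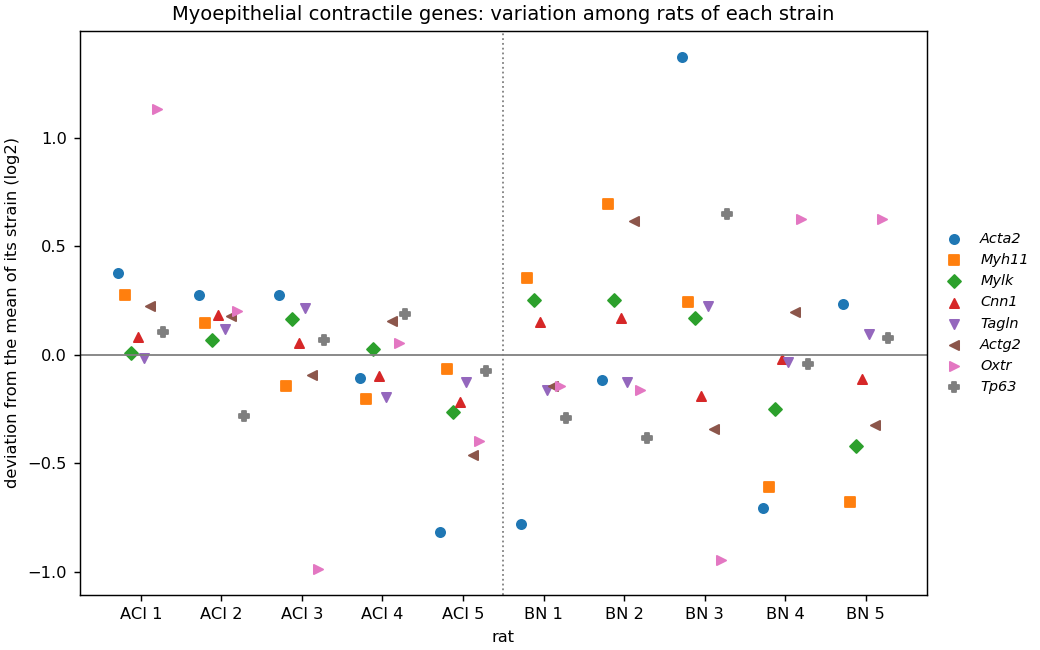
Deviation of each rat from the mean of its strain (log2, vertical axis) for the 8 genes (symbols), by rat (horizontal axis; ACI left, BN right of the dotted line). All 8 symbols of ACI rat 5 lie below 0, and in BN rat 3 *Acta2* and *Tp63* lie high while *Cnn1* and *Actg2* lie low.

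The animal IDs fall into 2 series, S for rats 1 to 3 and H for rats 4 and 5 of each strain. Within series S the log2 differences of *Cnn1*, *Tagln*, *Actg2* and *Tp63* were 0.57, 0.57, 1.08 and 1.0, and within series H they were 0.42, 0.25, 0.93 and 1.07. All 8 values lay on the ACI side. For *Cnn1*, *Tagln* and *Tp63* this was fixed in advance, since every ACI rat was above every BN rat. It was fixed for *Actg2* as well, since its only overlapping rats, ACI rat 5 and BN rat 2, are of different series. The shared side is thus no added support. Within series S only *Cnn1* of these was called, although that fit called 4855 probe sets (2072 higher in ACI), more than the 3930 of all rats, and within series H none of them was called, in a fit that called 100. For *Myh11* the difference was 0.13 in series S and 0.98 in series H, and for *Acta2* it was 1.22 and 0.85. For *Oxtr* it was 1.56 and 0.23, where series H had both BN rats and ACI rat 5 at 3.80. A test of whether the strain difference itself differed between the ID series passed for none of the 11 probe sets (adjusted p of 0.125 to 1 by limma), beside 856 of all probe sets. The meaning of the letters was not given in the labels or methods.

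Other genes of the contractile apparatus of smooth muscle went in both directions, as did the genes of the whole array. By representative probe set, of 31 measured genes of this list, 2 were called higher in ACI, 5 higher in BN and 24 were not called, and the median log2 difference was -0.13. Over all genes, 8.29% were called higher in ACI and 9.12% higher in BN. Among genes with a mean of at least 4 the shares were 11.9% and 12.8%. The counts of this list and of those below are to be read beside these shares. Higher in ACI were *Itga1*, an integrin subunit that binds collagen (log2 difference 2.55, adjusted p = 0.00367, with a BN mean near background at 3.63), and *Actg1*, the cytoplasmic γ-actin (0.32, adjusted p = 0.0180). Higher in BN were *Cnn2*, a calponin of many non-muscle cells (-1.43, adjusted p = 0.000803), *Tagln2*, a transgelin of many non-muscle cells (-1.27, adjusted p = 0.0317), and *Flna*, the actin cross-linker filamin A (-0.76, adjusted p = 0.0265), as well as *Cald1* and *Itga8*. The paralogs *Cnn1* and *Cnn2*, and *Tagln* and *Tagln2*, were thus called in opposite directions, though the call of *Tagln* was lost with centring (adjusted p = 0.0982). *Cnn2* was at 8.86 in ACI and 10.30 in BN glands and *Tagln2* at 9.50 and 10.77. Partners of the actins and myosin in the filaments were not called, with log2 differences of 0.29 for the regulatory light chain *Myl9* (adjusted p = 0.351), -0.13 for the tropomyosin *Tpm1* and 0.00 for *Tpm2*. Other probe sets of the tropomyosins gave other values, -2.38 to 3.63 for *Tpm1* and 3.32 for *Tpm2*, none of them called. *Cald1* and *Itga8* each had a second probe set called in the other direction (1.84, adjusted p = 0.00103, and 1.5, adjusted p = 0.00757), so that no direction can be given for them although both are among the 5 counted for BN. *Synpo2*, not called by its representative (-0.17), had another probe set called higher in ACI (1.51, adjusted p = 0.0349). When ACI rat 1, 2, 3 or 4 or when BN rat 1, 2 or 4 was removed, only 2 to 3 genes of the list were called higher in BN, and without ACI rat 4 only 1 higher in ACI.

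A list of serum response factor, cofactors and other transcription factors had 13 measured genes. Of them, 0 were called higher in ACI and 3 higher in BN, with a median of -0.09. The shares over genes with a mean of at least 4 were 11.9% and 12.8%. The 3 were *Mef2c* (-1.95, adjusted p = 0.00551) and *Mef2a* (-1.01, adjusted p = 0.00236), transcription factors of muscle and other tissues, and *Fhl2*, a cofactor that binds serum response factor (-1.06, adjusted p = 0.0247). A second probe set of *Mef2a* was called in the other direction (0.97, adjusted p = 0.0473). Those of *Mef2c* (-0.70, adjusted p = 0.315) and *Fhl2* (-0.75, adjusted p = 0.0984) went the same way as their representatives but were not called. *Srf* itself was at 8.33 ± 0.14 in ACI and 8.55 ± 0.16 in BN glands (adjusted p = 0.183), and *Myocd*, the cofactor of smooth muscle, was at background on all arrays.

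Other genes of basal and myoepithelial cells went in both directions. Of 26 measured, 5 were called higher in ACI and 3 higher in BN, with a median of -0.05. Beside them stand shares of 11.9% and 12.8% over genes with a mean of at least 4. Higher in ACI were the basal keratin *Krt15* (2.47, adjusted p = 0.000540), the hemidesmosomal collagen *Col17a1* (1.94, adjusted p = 0.00924), the laminin receptor subunit *Itga6* (1.19, adjusted p = 0.0133), *Lamb3*, and *Jag2*, which was near background. Higher in BN were *Igfbp3*, which binds insulin-like growth factors (-4.26, adjusted p = 0.00349), *Sfn*, the 14-3-3 protein of stratified epithelia (-2.50, adjusted p = 0.000476, with an ACI mean near background at 3.87), and the keratin *Krt6c*, listed under the former symbol *Krt6a*. *Krt6c* was at 2.23, the lowest value, in every ACI rat and at 3.66 to 5.41 in BN rats, so the size of its difference was not measured. Further probe sets of *Itga6* were also called higher in ACI, with larger differences (3.58, adjusted p = 0.00194, and 3.96, adjusted p = 0.000358). Another probe set of *Igfbp3* had a smaller difference in the same direction and was not called (-1.72, adjusted p = 0.0954). *Dst*, not called by its representative (-0.48), had another probe set called higher in ACI (2.22, adjusted p = 0.0160). The main keratins of the basal layer were not called, at 0.63 for *Krt5* (adjusted p = 0.0916), -0.22 for *Krt14* (adjusted p = 0.752) and -0.26 for *Krt17* (adjusted p = 0.691).

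**Figure D4:**
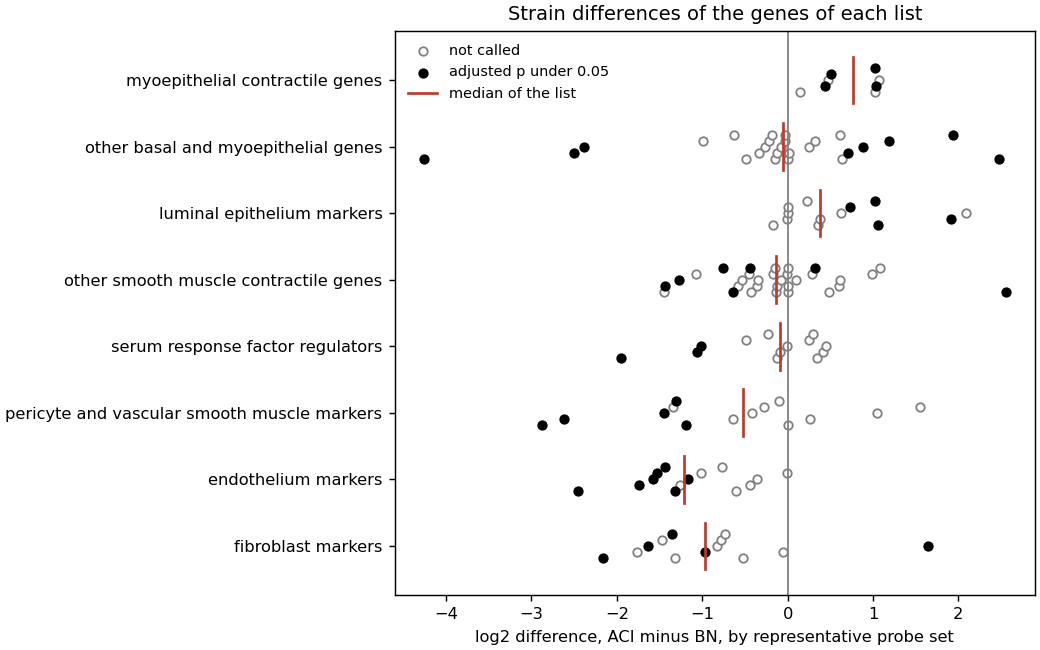
Log2 difference of ACI minus BN (horizontal axis) of every measured gene of each list (vertical axis), by representative probe set. Filled points were called, and the red line is the median of the list. The 8 genes of the set all lie right of 0 with a median of 0.76, and the pericyte, endothelium and fibroblast lists have medians of -0.53, -1.21 and -0.97. The other basal and other smooth muscle lists have medians of -0.05 and -0.13.

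Since vessels also express the contractile genes, markers of vessel cells were set beside them. Of 14 measured markers of pericytes and vascular smooth muscle, 0 were called higher in ACI and 5 higher in BN, and their mean level was 4.23 to 4.36 in ACI and 4.77 to 5.11 in BN rats, without overlap. The first 3 markers of the list were *Rgs5*, at 4.66 ± 0.33 in ACI and 6.0 ± 0.84 in BN glands (adjusted p = 0.0609), *Pdgfrb*, at 4.61 ± 0.79 and 5.02 ± 0.79 (adjusted p = 0.667), and *Notch3*, at 2.63 on every array. The 5 called markers were *Abcc9*, *Kcnj8*, *Mcam*, *Gucy1a1* and *Gucy1b1*, with differences of -2.87 to -1.19. Of these, *Kcnj8* had both means near background (2.60 and 3.90) and *Gucy1b1* its ACI mean (3.58). The list was not uniform, since *Angpt1* (1.55, adjusted p = 0.0628), *Des* (1.05) and *Higd1b* (0.27) had higher ACI means without a call. Another probe set of *Mcam* was also higher in ACI (0.54), without a call. With quantile normalization, 2 markers were called higher in ACI and 5 higher in BN. Of 14 endothelium markers, 0 were called higher in ACI and 7 higher in BN, among them *Kdr* (-1.52, adjusted p = 0.00804) and *Flt1* (-1.17, adjusted p = 0.0249), while *Pecam1* was not (-0.60, adjusted p = 0.299). Their means were 5.88 to 6.68 in ACI and 7.14 to 7.53 in BN rats. Over the fits that leave out 1 rat, 3 to 5 pericyte markers were called higher in BN, the 3 without ACI rat 2 or 3, and 2 to 4 endothelium markers, but 7 without ACI rat 1 or BN rat 5. The mean levels of both vessel lists were thus higher in the strain in which the 8 genes of the set had the lower means. The part of the vessel lists in the result was not tested.

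Of 13 luminal epithelium markers, 4 were called higher in ACI and 0 higher in BN. Their mean was 9.01 to 9.40 in ACI and 8.35 to 8.91 in BN rats, and that of the 8 genes of the set 8.93 to 9.51 and 8.41 to 8.67. *Krt18* was called (1.02, adjusted p = 0.0391), whereas *Krt8* (0.22, adjusted p = 0.714) and *Krt19* (-0.18, adjusted p = 0.901) were not. Of 13 fibroblast markers, 1 was called higher in ACI and 4 higher in BN (means 8.67 to 9.06 and 9.19 to 10.37), and *Col1a1*, *Col1a2* and *Col3a1* were not called, at -0.78, -1.76 and -0.74. The 4 fell to 2 without ACI rat 4 or BN rat 2 and grew to 8 without BN rat 5, and the 1 called higher in ACI was lost in some of the fits that leave out 1 rat. Of 10 lymphocyte markers, 9 were called higher in BN and 0 in ACI (means 3.80 to 4.17 and 5.17 to 9.26), *Cd3e*, *Cd3d* and *Cd3g* by -3.43, -5.01 and -3.97. The 9 became 10 without BN rat 3 and 5 without any other single rat, 5 with the replicate block and 2 within either ID series. Of 9 adipocyte markers 1 was called higher in BN (3 without ACI rat 1, and 0 or 1 without any other single rat), *Adipoq* (-0.86, adjusted p = 0.0481), while *Plin1* was not (-1.09) and *Lep* was near background. The part of these marker levels in the differences of the 8 genes was not tested.

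**Figure D5:**
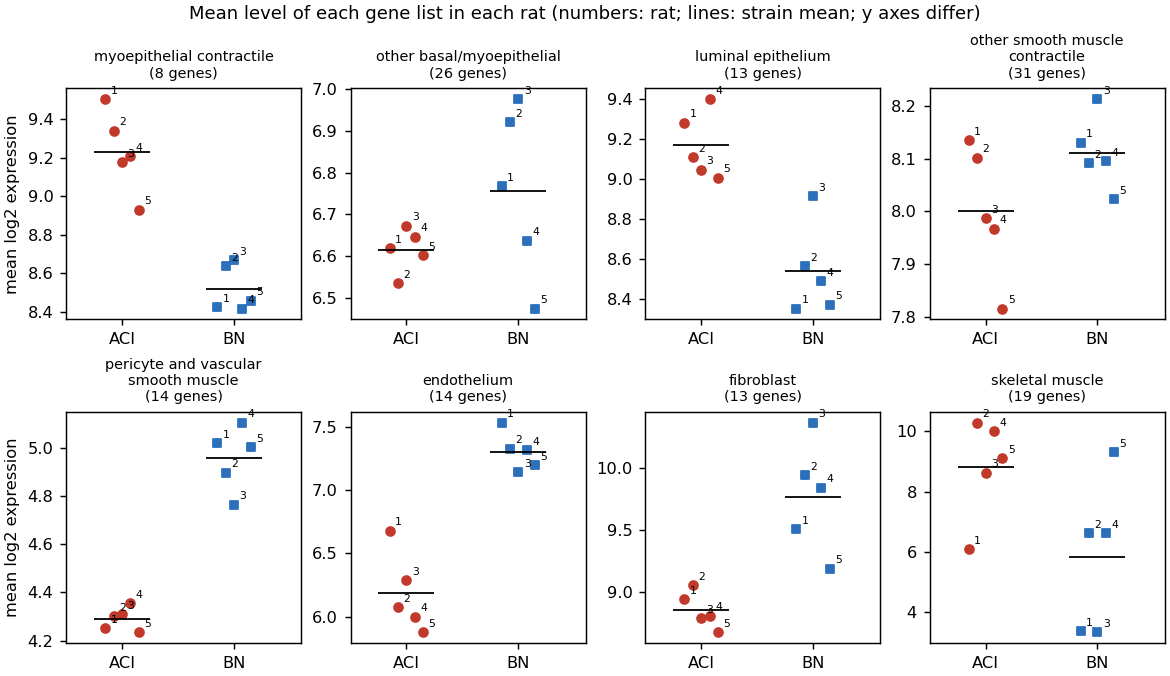
Mean log2 expression (vertical axes, which differ between panels) over the genes of 8 lists in each ACI rat (circles) and BN rat (squares), numbered by rat, with a line at the strain mean. The myoepithelial contractile and luminal lists are higher in ACI and the pericyte, endothelium and fibroblast lists higher in BN, without overlap. The other smooth muscle, other basal and skeletal muscle lists overlap. The other basal list has the lower mean in ACI (6.615, beside 6.755 in BN).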

How the data were processed

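RNA of whole mammary glands, from 5 rats of each strain, was hybridized with 1 array for every rat. The authors summarized the probes to log2 expression values per probe set with GCRMA 2.18.1 (the submitters' processing notes), and these were used as deposited, with 2 decimals. The labels and methods do not state which arrays were normalized together. ACI and BN samples were deposited in separate runs of accessions, so deposit and strain cannot be told apart. The extraction protocol given for BN mentions ACI rats, and the strain field was followed.

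Of 31099 probe sets, 57 controls were dropped. Gene symbols came from the platform annotation, updated by gene ID through a RefSeq table (20826 probe sets with 1 symbol, 436 with several, 9780 with none). Strains were compared with limma 3.58.1 (R 4.3.3) in a model of strain alone. The fit was tested on simulated data. The number of arrays limits the precision, and values under 4 were taken as near background.

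The members and gene lists were chosen with earlier results of these data known. A further pathway list is not reported here. Every member with every probe set was named, as were, in each pathway list, the 3 called genes with the largest difference in each direction and, in each marker list, the first 3 markers. *Cald1*, *Itga8*, *Synpo2*, *Dst*, *Esr1*, *Foxa1*, *Lamb3*, *Jag2*, *Myl9*, *Tpm1*, *Tpm2*, *Srf*, *Myocd*, *Krt5*, *Krt14*, *Krt17*, *Abcc9*, *Kcnj8*, *Mcam*, *Gucy1a1*, *Gucy1b1*, *Angpt1*, *Des* and *Higd1b* lie outside this rule and were chosen once their values were known. Alternatives comprised a replicate block, the ID series as a block or alone, a filter and a floor at 4, and quantile normalization. Further ones were median centring, a trended robust variance, array weights and the mean of a gene's probe sets. Others left out BN rats 4 and 5, each rat in turn, or the probe sets with the suffix _a_at, _s_at or _x_at. The last was the methods' t-test. It passed 5 of the 8 members at its threshold and 4 after Benjamini-Hochberg adjustment (7434 and 3595 of all probe sets).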

Additional observations from a re-analysis of the deposited data

Results flagged for a closer look

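In each strain, a rat that stood far from the other 4 was looked for in 41 sets of 5 values, and 2 were found. The limit used is passed by chance in about 5% of sets of independent, normally spread values, a rate that does not hold where values are tied at the lowest value, as in the first of the 2. The second probe set of *Myh11* was at 2.40 in ACI rat 4 and at 2.23, the lowest value of the data, in the other ACI rats, so that the gap made up the whole range (ratio 1). Over 10 lymphocyte markers, BN rat 3 had a mean of 5.17 and its nearest BN rat 8.42, a gap of 0.795 of the range of the BN rats. The same rat had the highest *Acta2*, *Tagln* and *Tp63* among BN rats, and the part of the marker levels in these values was not tested.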

How the results depend on the processing

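The 4 calls among the 8 genes were read under 14 other settings and with each rat left out. In these settings *Cnn1*, *Actg2* and *Tp63* were each called in 12 of 14 and *Tagln* in 8, and in no setting was any of the 8 called higher in BN. For the representative probe sets of the 8 genes, 167 of 190 repeated tests stayed on the same side of the threshold in the same direction, and for the counts over all probe sets, the members and the 3 pathway lists 197 of 238 stayed within 1.5 times. For the second probe sets this held in 58 of 65 tests, the exceptions all being *Mylk* becoming called, and for the marker lists in 255 of 336 counts. Counts of 0 that stayed at 0, such as members called higher in BN, are among those that held and raise these totals. Of all these tests, 1 changed direction, *Mylk* at -0.0793 without BN rats 4 and 5.

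Replicate numbers did not pair the rats, since the correlations of same-numbered rats ran from -0.25 to 0.23. With the number as a replicate block, 1926 probe sets were called (3930 without), 1040 of them higher in ACI (2108 without), *Tagln* was at 0.44 (adjusted p = 0.0627), the smooth muscle list had 1 call in ACI and 3 in BN, the serum response factor list 1 in BN and the basal list 3 in ACI.

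Within ID series S (3 rats per strain), *Tagln* was at 0.57, *Actg2* at 1.08 and *Tp63* at 1.0 without a call, 1 member was called among 4855 called probe sets (2072 higher in ACI), and the serum response factor list had 1 call in ACI. Within series H (2 rats per strain), 100 probe sets were called, 45 higher in ACI. *Cnn1* at 0.42, *Tagln* at 0.25, *Actg2* at 0.93 and *Tp63* at 1.07 were not called there, so 0 members were. The smooth muscle and serum response factor lists had 0 calls in either direction and the basal list 0 in ACI and 1 in BN.

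Median centring left *Tagln* at 0.41 (adjusted p = 0.0982) and 1 smooth muscle gene called in ACI. Leaving out the probe sets with the suffix _a_at, _s_at or _x_at also left 1 smooth muscle gene called in ACI. The representative of *Actg1*, with the suffix _a_at, was among those dropped. A trended robust variance left *Cnn1* at 0.51 (adjusted p = 0.0518) and *Tagln* at 0.44 (adjusted p = 0.0682), so 2 members were called, with 1 smooth muscle gene in ACI and 3 in BN. Array weights gave 8397 calls, 3719 higher in ACI, and called *Acta2* at 1.25. They gave 5 smooth muscle genes and 2 genes of the serum response factor list in ACI and 6 basal genes in BN. Without BN rats 4 and 5, 6350 probe sets were called and *Tagln* was at 0.46 (adjusted p = 0.0540). The calls were then 4 smooth muscle genes and 1 gene of the serum response factor list in ACI and 5 basal genes in BN. The mean of a gene's probe sets called *Mylk* at 0.87, left 3 smooth muscle genes in BN and halved the difference of *Tp63* to 0.52, since its second probe set is flat. Elsewhere the cause was not tested.

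With each rat left out in turn, the calls ran from 2598 to 4618 probe sets (1422 to 2118 higher in ACI) and from 3 to 5 members. The differences ran from 0.87 to 1.41 for *Acta2*, 0.39 to 0.50 for *Tagln* and 0.93 to 1.17 for *Actg2*. The lists ran from 1 to 3 in ACI and 2 to 5 in BN for smooth muscle and 0 to 1 in ACI for serum response factor. No value could be had for *Oxtr* and the second *Mylk* probe set under the filter at 4, or for counts of probe sets after averaging them. The same held for *Myh11* and the second *Tp63* probe set where suffixes were left out, since both have the suffix _a_at.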

Other observations

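Genes outside the set whose levels followed a member most closely over the 10 arrays were found by the mean absolute difference between levels centred on each gene's mean, among 7297 genes with a mean of at least 6. For *Tp63* these were *Irx1*, a homeobox transcription factor (0.107), *Mfge8*, a protein of milk fat globules (0.128), and *Uri1* (0.139), beside a mean absolute deviation of *Tp63* itself of 0.541. *Irx1* was at 11.10 in ACI and 10.10 in BN glands and *Mfge8* at 12.63 and 11.71. For *Cnn1* they were the mitochondrial genes *Phb2* (0.074), *Ndufb11* (0.0772) and *Gcdh* (0.092), beside 0.254 for *Cnn1* itself. For *Acta2* they were *Igfbp2*, which binds insulin-like growth factors (0.221), the metallothionein *Mt2A* (0.226) and *Cpne3* (0.231), beside 0.758. *Igfbp2* was at 10.56 in ACI and 9.32 in BN glands. For *Oxtr* they were *Mettl7a* (0.279), the fatty acid transporter *Slc27a1* (0.310) and *Polr2e* (0.317), beside 0.653, which is a loose likeness. Centring over all 10 arrays kept the strain difference, so a close match can come from a like difference between the strains. *Cnn1* was at 8.90 in ACI and 8.39 in BN glands and *Phb2* at 10.69 and 10.19. Likeness among the rats of a single strain was not tested. With 7297 candidates and 10 arrays, close matches are found for many genes, and the values describe these arrays alone.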
